A study of Mus musculus with 28 samples.

Results

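Expression of 8 genes of fatty acid oxidation and its fuel switch was followed in mouse small-intestinal organoids exposed to single ligands of the Tgfb superfamily. The genes were Cpt1a, Cpt2, Acadm, Acadl, Hadha, Ehhadh, Acaa2 and Pdk4, chosen by name for their role, and each matched 1 gene among the 29413 in the BMP experiment and the 55416 in the TGFb experiment. The organoids were small-intestinal epithelial cultures from wild-type C57BL/6 mice, and the crypts of all groups were started in ENR medium with no ligand added. ENR stands for EGF, Noggin and R-spondin, and Noggin is a BMP antagonist. The series' text does not say whether Noggin was present during the ligand treatment. The BMP experiment comprised 4 untreated samples, 4 samples given BMP2, and 3 samples each given BMP3, BMP4, BMP5 or BMP7, and the TGFb experiment comprised 3 untreated samples and 3 given Tgfb. Each ligand was used at 500 ng/ml for 24 h, and the labels name no gene deletion or transgene in the organoids. The labels do not say that the samples of a group came from separate cultures or animals, so p-values measure only the spread between these samples, which may be technical. The series held 28 samples in all, and its mesenchymal cell samples were not analysed here.

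Long-chain fatty acids enter mitochondria as carnitine esters. Cpt1a makes the ester at the outer membrane and is the controlled step of entry, and Cpt2 turns it back into acyl-CoA inside. Each turn of beta-oxidation then uses an acyl-CoA dehydrogenase (Acadl for long chains, Acadm for medium chains), a hydratase and a hydroxyacyl-CoA dehydrogenase (both carried by the trifunctional subunit Hadha for long chains) and a thiolase such as Acaa2. Ehhadh is the bifunctional enzyme of the peroxisomal pathway. Pdk4 phosphorylates and inhibits pyruvate dehydrogenase, which spares glucose-derived carbon when fat is burned. Many of these genes are known targets of the nuclear receptor Ppara, and ketone bodies are made from their acetyl-CoA in liver and gut epithelium.

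BMP4 raised all 8 genes, between 2.01-fold (Acaa2) and 9.35-fold (Pdk4) by group means. Under 2 other scalings (quantile normalisation, and every sample set to the same total) the 8 rises still passed but those other than Pdk4 were smaller under both, with Acaa2 at a log2 change of 0.61 in place of 1.01. BMP2 did not do the same: Pdk4, Acadl, Cpt1a and Hadha rose, Ehhadh and Acaa2 fell, and Cpt2 and Acadm did not pass the test. The Cpt1a and Hadha rises with BMP2 did not pass under those scalings, where Hadha changed sign and Acadm passed as lower. Tgfb raised Acadl and Cpt1a and lowered Ehhadh and Acaa2. BMP5 and BMP7 lowered Ehhadh and Acaa2, and with BMP3 0 of 8 genes passed the test. The tests were two-sided limma tests on log2(value + 1) with Benjamini-Hochberg adjustment over all genes tested, and a gene passed at an adjusted p below 0.05.

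Values in the BMP experiment are normalised counts, the gene's read count divided by a size factor of its sample. Between 21356344 and 24781575 reads were recovered per sample, and 1 read was worth 0.826 to 1.28 normalised counts. That worth split by ligand. It was 1.135 to 1.28 in the BMP2 and BMP4 samples and 0.826 to 0.962 in all other samples. The scaling thus raised BMP2 and BMP4 values relative to untreated ones, and the cause of the split was not tested. Values in the TGFb experiment are TPM, transcript abundances corrected for gene length and scaled to a common total, which keep no depth, so the depth there is unknown. All 8 genes passed the filter of a mean of at least 10 in the BMP experiment, and 7 of 8 did so in TPM, the exception being Pdk4. The samples expressed epithelial markers throughout, while the summed mesenchymal markers stayed between 1.19 and 55.4 normalised counts, with Col3a1 at 0 in every untreated, BMP5 and BMP7 sample. The endothelial sum was nearly all Pecam1, with Cdh5 and Kdr at 0 in every untreated sample, and ran from 569 to 774 untreated, 832 to 1022 with BMP2 and 865 to 1031 with BMP4. The immune sum lay between 24.8 and 45.4 normalised counts untreated and between 48.2 and 111 with BMP2. The summed markers of epithelium, crypt cells and enterocytes differed between groups and are given beside the results.

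In length-corrected TPM, untreated organoids of the TGFb experiment held most transcript for Hadha, at 187 ± 18.1 (SD, n = 3). Acaa2 at 99.1 ± 5.34 and Acadm at 97.4 ± 7.84 followed and did not differ beyond their spread, and Acadl stood at 66.7 ± 6.48. Cpt2 at 41.1 ± 3.97 and Ehhadh at 40.3 ± 3.42 were likewise within their spread of each other, and Cpt1a was at 29.7 ± 2.63. Pdk4 was at 0.0348 ± 0.0174, far below the enzymes of the pathway.

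The carnitine entry genes separated BMP4 from the other BMP ligands. Cpt1a was at 2130, 1990, 2430 and 1890 normalised counts in the untreated samples (II, III, VI and IV) and at 7150, 6320 and 7540 with BMP4 (II, III and VI). With BMP2 it was at 2800, 3000, 3640 and 2860 (II, III, VI and IV), and with BMP7 at 3000, 2480 and 2910. All BMP4 samples lay above all others, and the BMP2 and BMP7 samples lay above the untreated ones without overlap. Cpt1a rose by 1.73 ± 0.12 (log2 change ± SE, adjusted p = 6.8e-10) with BMP4, by 0.54 ± 0.11 (adjusted p = 0.000158) with BMP2 and by 0.41 ± 0.12 (adjusted p = 0.0113) with BMP7. The BMP2 rise depended on scaling: it was 0.12 with quantile normalisation and 0.08 with every sample set to the same total, neither past the threshold. In recovered reads, before scaling, Cpt1a ran from 2346 to 2876 with BMP2 and from 2130 to 2942 untreated, which overlapped. With BMP4 it ran from 5540 to 6300 reads, above both. The BMP7 rise missed the threshold without BMP7 replicate II, at an adjusted p of 0.0617. BMP3 samples held 2230, 2070 and 1820 and BMP5 samples 2180, 2130 and 2590, which overlapped with the untreated range.

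Cpt2 passed the test against untreated samples with BMP4 and with none of BMP2, BMP3, BMP5, BMP7 or Tgfb. It was at 986, 1140, 1370 and 1220 normalised counts in untreated samples and at 3860, 3950 and 4470 with BMP4, a rise of 1.80 ± 0.16 (adjusted p = 2.48e-08). With BMP2 it was at 1030, 1330, 1790 and 1490, overlapping with the untreated samples, and the change of 0.24 ± 0.15 did not pass (adjusted p = 0.159). The BMP2 change did pass as higher with same-numbered samples paired as a block (adjusted p = 0.00639) and without BMP2 replicate II (0.38, adjusted p = 0.0216). Over all alternatives run it lay between -0.22 and 0.38. The direct comparison of BMP2 with BMP4 gave -1.56 ± 0.16 for Cpt2 (adjusted p = 1.06e-07) and -1.19 ± 0.12 for Cpt1a (adjusted p = 3.95e-08). Both carnitine palmitoyltransferases were therefore lower with BMP2 than with BMP4.

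The 2 acyl-CoA dehydrogenases, which act on different chain lengths, parted under BMP2. Acadl was at 2070, 2060, 3000 and 2480 normalised counts in untreated samples, at 4130, 5190, 7060 and 5600 with BMP2 and at 5480, 5640 and 6400 with BMP4. The BMP2 and BMP4 ranges overlapped each other and neither overlapped with the untreated range. Acadl rose by 1.18 ± 0.19 with BMP2 (adjusted p = 1.35e-05) and by 1.30 ± 0.20 with BMP4 (adjusted p = 1.76e-05), and the difference between the ligands was -0.11 with a 95% interval from -0.54 to 0.31 (adjusted p = 0.649). Acadm was at 1630, 1580, 1950 and 1630 in untreated samples, at 1290, 1490, 1790 and 1380 with BMP2 and at 4170, 4350 and 3830 with BMP4. Here the BMP2 samples overlapped with the untreated ones and the BMP4 samples stood above both. The Acadm change was 1.28 ± 0.10 with BMP4 (adjusted p = 4.95e-09) and -0.20 ± 0.09 with BMP2 (adjusted p = 0.0669), and the change of BMP2 against BMP4 was -1.48 ± 0.10 (adjusted p = 3.72e-10). Acadm passed as lower with BMP2 after quantile normalisation (-0.48, adjusted p = 4.49e-05), at the same total (-0.66, adjusted p = 7.43e-07), with edgeR (-0.24, adjusted p = 0.0265), with the replicate block (adjusted p = 0.0326) and without BMP2 replicate VI (-0.29, adjusted p = 0.00558).

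Hadha, the long-chain trifunctional subunit, was at 4820, 4580, 5490 and 4850 normalised counts in untreated samples and at 13800, 13700 and 12600 with BMP4. With BMP2 it was at 5890, 6390, 7990 and 6190, above the untreated samples without overlap. The change was 1.44 ± 0.10 with BMP4 (adjusted p = 8.99e-10) and 0.42 ± 0.09 with BMP2 (adjusted p = 0.000441). The BMP2 change of Hadha turned with the scaling, to -0.13 after quantile normalisation and -0.044 at the same total, neither past the threshold. In recovered reads, before scaling, Hadha ran from 4997 to 6313 with BMP2 and from 5430 to 6647 untreated, which overlapped. Hadhb, which encodes the partner thiolase subunit, rose by 1.25 with BMP4 (adjusted p = 1.06e-08) and was at 0.05 with BMP2 (adjusted p = 0.683), or -0.40 and -0.41 under the 2 other scalings, past the threshold. Over the 20 samples Hadha and Hadhb had a Pearson r of 0.956, and the ratio of their normalised counts lay between 1.54 and 2.23.

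Ehhadh and Acaa2 were the members that passed as lower with BMP2 as scaled by the authors. Acaa2, a mitochondrial thiolase, was at 2000, 1940, 2510 and 2200 normalised counts in untreated samples, at 401, 336, 619 and 402 with BMP2 and at 4540, 4310 and 4190 with BMP4. Ehhadh, the peroxisomal bifunctional enzyme, was at 1380, 1400, 2030 and 1650 in untreated samples, at 513, 543, 882 and 456 with BMP2 and at 5920, 5530 and 5050 with BMP4. For both genes the 3 groups formed separate ranges, with BMP2 lowest and BMP4 highest. Acaa2 changed by -2.33 ± 0.15 with BMP2 (adjusted p = 6.46e-11) and by 1.01 ± 0.16 with BMP4 (adjusted p = 1.89e-05). Ehhadh changed by -1.46 ± 0.17 with BMP2 (adjusted p = 3.94e-07) and by 1.78 ± 0.19 with BMP4 (adjusted p = 1.64e-07). In the direct comparison the means with BMP4 were 9.89-fold (Acaa2) and 9.19-fold (Ehhadh) those with BMP2, and these were the members with the largest difference between the 2 ligands.

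BMP5 and BMP7 lowered the same 2 genes, and the fall with BMP7 was smaller than with BMP2 in the direct test. Acaa2 was at 1550, 1130 and 1430 normalised counts with BMP5 and at 1260, 1200 and 1420 with BMP7, and Ehhadh at 1030, 840 and 1170 with BMP5 and at 904, 930 and 1240 with BMP7. All of these samples lay below the lowest untreated sample of the same gene. Acaa2 changed by -0.66 ± 0.16 with BMP5 (adjusted p = 0.00459) and by -0.74 ± 0.16 with BMP7 (adjusted p = 0.00157). Ehhadh changed by -0.67 ± 0.19 with BMP5 (adjusted p = 0.0135) and by -0.65 ± 0.19 with BMP7 (adjusted p = 0.0126), and missed the threshold without BMP5 replicate III (adjusted p = 0.0906) or without BMP7 replicate II (adjusted p = 0.0659). The direct tests of BMP2 against BMP7 gave -1.59 ± 0.16 for Acaa2 (adjusted p = 1.06e-07) and -0.81 ± 0.19 for Ehhadh (adjusted p = 0.0011). BMP3 samples held 1970, 1900 and 2320 for Acaa2 and 1430, 1530 and 1640 for Ehhadh, which overlapped with the untreated samples.

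Pdk4, the pyruvate dehydrogenase kinase, was the member with the lowest counts and, with BMP2 and BMP4, the largest fold rise. It was at 5.33, 13.3, 6.61 and 8.87 normalised counts in untreated samples, which came from 6 to 16 reads each. It was at 34.1, 52.4, 65.8 and 149 with BMP2 (II, III, VI and IV) and at 92.4, 82.1 and 64.6 with BMP4. All BMP2 and BMP4 samples stood above the untreated ones, and they overlapped each other. Pdk4 rose by 2.86 ± 0.39 with BMP2 (adjusted p = 1.98e-06) and by 3.14 ± 0.42 with BMP4 (adjusted p = 2.71e-06). Without the highest sample, BMP2 replicate IV, the BMP2 rise was 2.46 (adjusted p = 5.2e-06). With BMP7 it was at 37.2, 17.3 and 18.3, a rise of 1.39 ± 0.42 (adjusted p = 0.0159) that missed the threshold without replicate II (adjusted p = 0.108). With BMP5 it was at 13.5, 20.4 and 15.5, a change of 0.92 ± 0.42 (adjusted p = 0.114), or 1.11 with an adjusted p of 0.0393 when same-numbered samples were paired as a block.

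**Figure D1:**
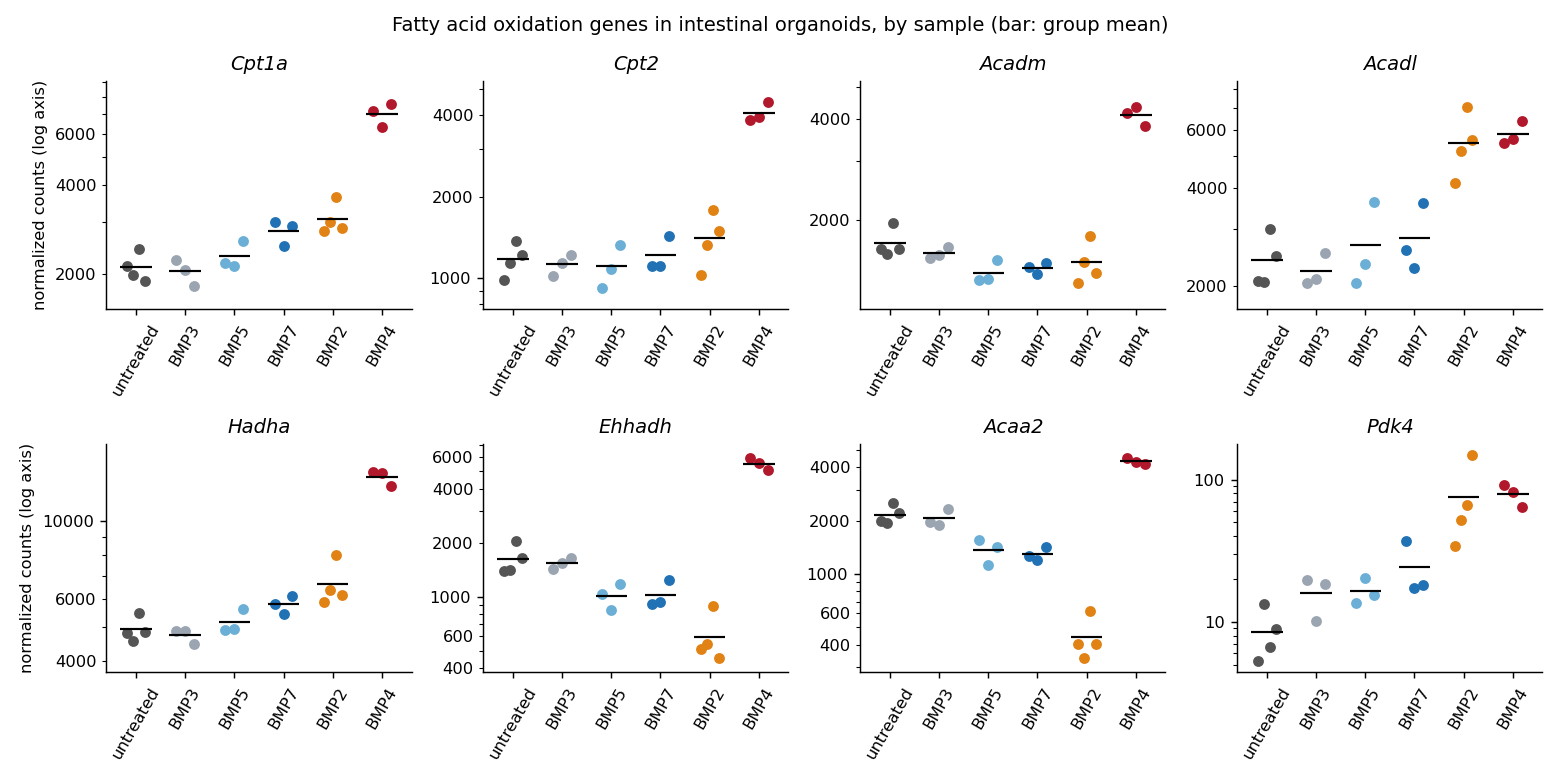
Normalised counts (log axis) of the 8 members in each of the 20 samples of the BMP experiment, by group, with a bar at the group mean. The BMP4 samples are the highest group for 6 members, share the top with BMP2 for Acadl and Pdk4, and the BMP2 samples are the lowest group for Ehhadh and Acaa2.

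Counted over the members, BMP4 gave 8 higher and 0 lower of 8, where 33.7% of all genes tested were called higher and 31.4% lower. All 8 members had BMP4 samples wholly above the untreated ones, as had 33.8% of all genes, and 31.0% had them wholly below. The median log2 change was 1.59 for the members and 0.04 for all genes tested. BMP2 gave 4 higher and 2 lower, against backgrounds of 36.8% higher and 38.4% lower, with a members' median of 0.33 and an all-gene median of -0.03. BMP2 therefore called members in either direction at about the rate of any gene. BMP5 gave 0 higher and 3 lower (the third being Acadm, -0.29, adjusted p = 0.0427, a call lost without BMP5 replicate II or III or without control replicate II, VI or IV), where 16.5% of genes were called higher and 9.87% lower. BMP7 gave 2 higher and 2 lower, beside 19.2% and 13.2%.

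With the same-numbered samples paired as a block, BMP7 gave 4 higher members in place of 2, as Acadl (0.24, adjusted p = 0.0498) and Hadha (0.21, adjusted p = 0.0459) passed, and Acadm (-0.26, adjusted p = 0.0262) passed as lower. The share of all genes called with BMP7 grew as well under the block, to 24.0% higher and 21.3% lower. BMP5 gave 1 higher member in place of 0, which was Pdk4, while all genes went to 21.3% higher and 17.6% lower. BMP3 called 0.0% of all genes and 0 of 8 members, whose log2 changes lay between -0.10 and 0.86. Of all 14746 genes, 110 had an unadjusted p under 0.05 with BMP3 in the main fit and 261 with the block, which called 0. Both numbers are below the share of 0.05 that chance alone would give, so these tests were strict with BMP3. edgeR called 0 genes and DESeq2 called 1. A wide interval is left by 3 samples, and the interval of Cpt1a with BMP3 ran from -0.29 to 0.20.

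**Figure D2:**
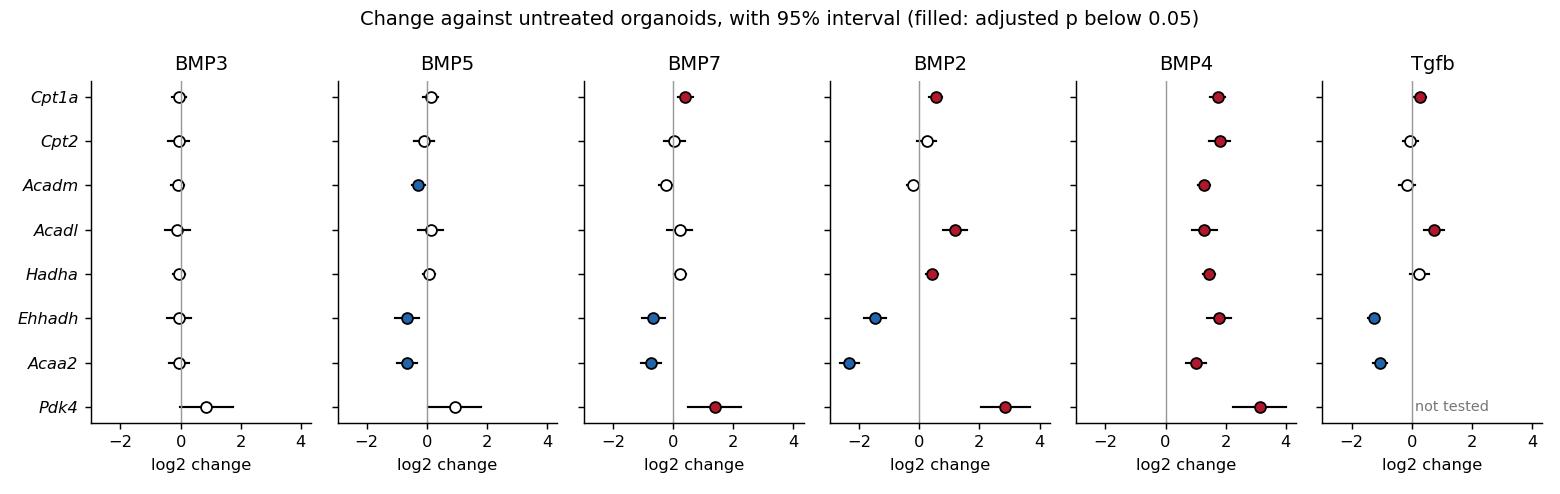
Log2 change of each member against untreated organoids of the same experiment, with its 95% interval, for the 5 BMP ligands and Tgfb. Filled points have an adjusted p below 0.05 (red higher, blue lower). All 8 points are filled and to the right of 0 for BMP4, while Ehhadh and Acaa2 lie to the left of 0 for BMP5, BMP7, BMP2 and Tgfb.

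Differences between ligands were tested directly. The F-test across the 5 ligands was passed by 8 of 8 members (largest adjusted p = 7.58e-05, for Pdk4) and by 84.1% of all genes. BMP2 against BMP4 gave 0 members higher and 6 lower, where 33.4% of genes were higher and 33.4% lower. Acadl and Pdk4 were the members that did not pass, and the Pdk4 difference of -0.28 had a 95% interval from -1.16 to 0.60. BMP4 against BMP7 gave 8 higher and 0 lower (28.4% and 31.4% of all genes), from 1.08 for Acadl to 2.44 for Ehhadh. BMP2 against BMP7 gave 2 higher, Pdk4 (1.47, adjusted p = 0.00513) and Acadl (0.97, adjusted p = 0.000425), and 2 lower (31.4% and 31.4%). BMP5 against BMP7 gave 0 of 8 and 0.0136% of all genes, and the members' differences lay between -0.47 (Pdk4) and 0.07 (Acaa2).

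Splits over all genes moved with the scaling, which matters for values near 0. With every sample set to the same total, BMP2 called 3627 genes higher and 7783 lower (5420 and 5657 as scaled by the authors), BMP4 3100 and 6864 (4964 and 4633), BMP2 against BMP7 2527 and 6948 (4637 and 4625) and BMP4 against BMP7 2668 and 6641 (4190 and 4628). The all-gene median moved to -0.48 with BMP2 and -0.35 with BMP4. BMP5 called 2397 higher and 2413 lower after quantile normalisation and 2354 and 1893 at the same total (2429 and 1455), and BMP7 2716 and 2938, and 2587 and 2725 (2833 and 1940). The 8 rises with BMP4 stayed past the threshold under both scalings, at log2 changes from 0.61 (Acaa2) to 3.38 (Pdk4) after quantile normalisation and from 0.61 to 2.76 at the same total. In that order, Hadha was at 0.85 and 1.04 in place of 1.44, Acadl at 0.89 and 0.90 in place of 1.30, and Acadm at 0.90 and 0.88 in place of 1.28.

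Tgfb gave 2 members higher and 2 lower of the 7 tested, where 31.4% of genes were called higher and 32.9% lower, so the members' share was near the background. The members' median was -0.05 and the all-gene median -0.01. Ehhadh was at 44.2, 37.8 and 39.1 TPM untreated (III, II and I) and at 16.5, 15.9 and 15.9 with Tgfb, and Acaa2 at 105, 96.4 and 95.6 against 51.8, 41.7 and 47.5. Neither gene's groups overlapped. Ehhadh changed by -1.27 ± 0.08 (adjusted p = 1.34e-05) and Acaa2 by -1.07 ± 0.10 (adjusted p = 7.75e-05). Acadl was at 74.2, 63.4 and 62.6 TPM untreated and at 137, 101 and 100.3 with Tgfb, a rise of 0.74 ± 0.14 (adjusted p = 0.00286).

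Cpt1a was at 32.6, 29.1 and 27.4 TPM untreated and at 37.5, 34.8 and 34.8 with Tgfb. The groups did not overlap and the rise was 0.26 ± 0.08 (adjusted p = 0.0283), a call lost without control replicate I or II, or without any one of the Tgfb samples. Cpt2 (-0.05, adjusted p = 0.710), Acadm (-0.17, adjusted p = 0.222) and Hadha (0.26, adjusted p = 0.144) did not pass and their groups overlapped. Pdk4 was below the filter, at 0.0150, 0.0420 and 0.0476 TPM untreated and 0.124, 0.127 and 0.186 with Tgfb. The Pdk4 samples did not overlap, and no test is given at these levels. Side by side, Acaa2, Ehhadh, Acadl and Cpt1a had log2 changes of -1.07, -1.27, 0.74 and 0.26 with Tgfb and of -2.33, -1.46, 1.18 and 0.54 with BMP2, in experiments that share no samples. These are the members that passed with Tgfb. The signs were the same with BMP7 (-0.74, -0.65, 0.22 and 0.41) and BMP5 (-0.66, -0.67, 0.12 and 0.13). Acadl with BMP5 and BMP7 and Cpt1a with BMP5 did not pass. With BMP4 all of them rose. The Cpt1a rise with BMP2 did not pass under other scalings.

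Ratios between members within a sample are unchanged by any single factor per sample. Quantile normalisation moves genes unequally and can change them: with BMP4 it gave 0.61 for Acaa2 and 0.85 for Hadha in place of 1.01 and 1.44. The ratios below are of the values as deposited. The ratio of Acaa2 to Hadha was 0.437 ± 0.021 (SD, n = 4) in untreated samples, 0.325 ± 0.0095 with BMP4 (n = 3) and 0.0658 ± 0.0103 with BMP2 (n = 4). The 3 groups did not overlap, and the ratio was lower with both ligands than in untreated samples, lowest with BMP2. The ratio of Ehhadh to Cpt1a was 0.765 ± 0.11 untreated, 0.791 ± 0.11 with BMP4 and 0.192 ± 0.036 with BMP2. BMP4 samples overlapped with untreated ones in this ratio, while BMP2 samples lay below both. The ratio of Acadl to Acadm was 1.41 ± 0.14 untreated, 1.43 ± 0.21 with BMP4 and 3.67 ± 0.40 with BMP2. Here too BMP2 alone of these 3 groups stood apart. The BMP5 and BMP7 samples also lay outside the untreated range in all 3 ratios, on the same side as BMP2. In the order of the ratios above, the means were 0.266, 0.44 and 1.90 with BMP5, and 0.223, 0.37 and 1.96 with BMP7. BMP3 samples overlapped with untreated ones in each ratio. In TPM, the ratio of Acaa2 to Hadha was 0.531 ± 0.028 untreated and 0.213 ± 0.044 with Tgfb (n = 3 each). The ratio of Ehhadh to Cpt1a was 1.36 ± 0.063 untreated and 0.451 ± 0.010 with Tgfb, and that of Acadl to Acadm 0.687 ± 0.067 and 1.30 ± 0.19 (n = 3 each).

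**Figure D3:**
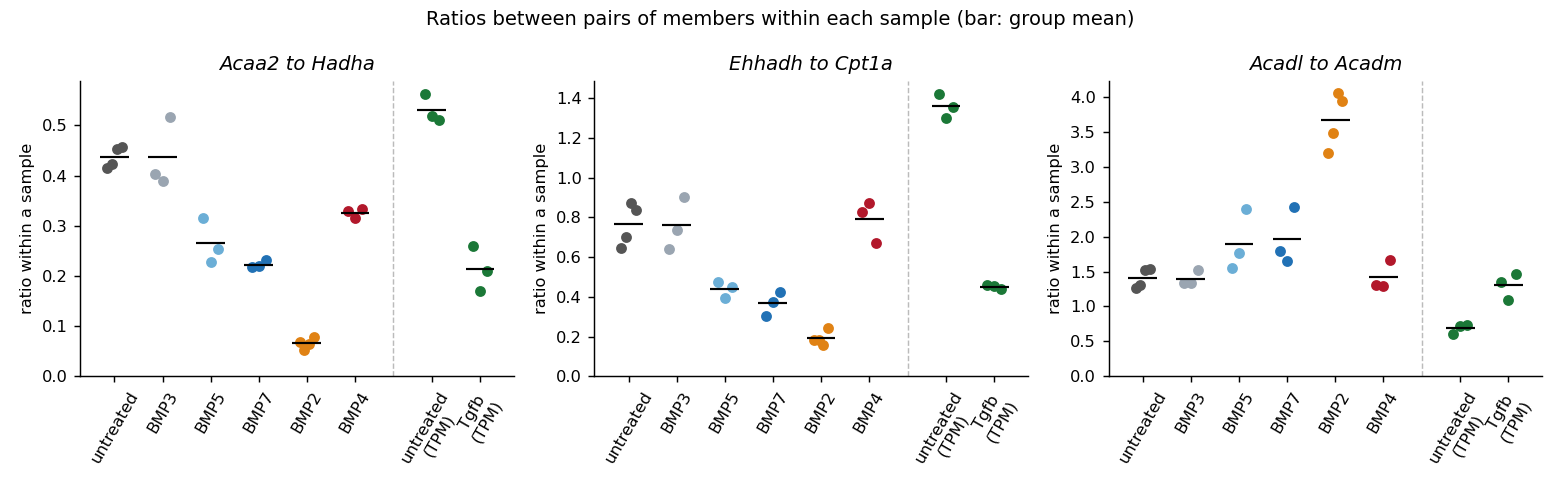
Ratio of Acaa2 to Hadha, Ehhadh to Cpt1a and Acadl to Acadm within each sample, by group, with a bar at the group mean. Groups to the right of the dashed line are the TGFb experiment in TPM, whose level cannot be set against the normalised counts. BMP2 samples are lowest in the first 2 panels and highest among the BMP experiment in the third.

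Over the 20 BMP samples Cpt1a, Cpt2 and Hadha were the most alike of the members, and Ehhadh and Acaa2 formed a pair. These correlations are descriptions, and the samples share ligand groups. Cpt1a and Hadha had an r of 0.988, Cpt2 and Hadha 0.959, and Cpt2 and Acadm 0.946. Ehhadh and Acaa2 had an r of 0.926, while Acadl and Acaa2 stood at -0.17 and Pdk4 and Acaa2 at -0.23. Acadl and Pdk4 had an r of 0.825. Acadm had an r of 0.859 with Cpt1a and 0.900 with Ehhadh, but 0.682 with Acaa2.

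Among genes with a mean of at least 50, the 3 with the pattern most like Cpt1a (Pearson r over the 20 samples) were Hadha, Gng12 (0.985) and Acadvl (0.984), the last being the very-long-chain acyl-CoA dehydrogenase. Those most like Hadha were Acadvl (0.992), Cpt1a and Pls1 (0.986), and those most like Cpt2 were Rbm47 (0.991), Ogdh (0.989), a subunit of 2-oxoglutarate dehydrogenase, and Ap2a2 (0.987). For Acadm they were Zfp768 (0.993), Mocs2 (0.988) and Esrra (0.988), a nuclear receptor of mitochondrial genes. For Acadl they were Zdhhc9 (0.986), Cdhr5 (0.984), a microvillus cadherin, and Sirt7 (0.982). For Ehhadh they were Mttp (0.992), which loads lipid onto lipoproteins, Bpnt1 (0.991) and Abcg8 (0.990), a sterol transporter. For Acaa2 they were H2-T3 (0.995), Dnm1 (0.993) and Cryl1 (0.993), and for Pdk4 Myo6 (0.919), Magi3 (0.919) and Ccser2 (0.918).

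**Figure D4:**
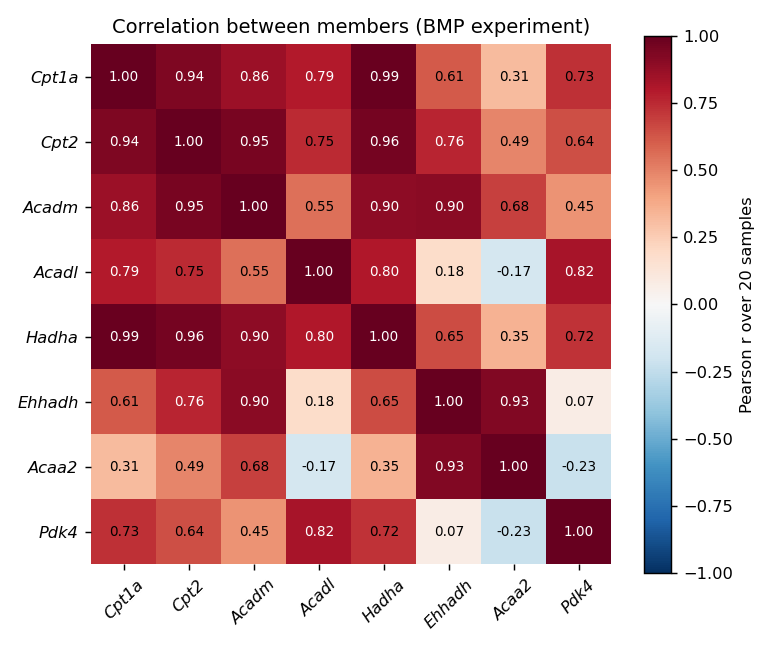
Pearson r between each pair of members over the 20 samples of the BMP experiment (log2 scale), coloured from -1 (blue) to 1 (red). Cpt1a, Cpt2 and Hadha form a block with r from 0.937 to 0.988, and Ehhadh and Acaa2 form a pair at 0.926. Acadm has 0.859 to 0.946 with the block, 0.900 with Ehhadh and 0.682 with Acaa2.

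Because Cpt1a, Acadm and Hadha rose together with BMP4, the 250 bases before their starts were searched in the RefSeq promoter table (GRCm38.p6, while the authors' notes name GRCm39). The table held 7 of the 8 members. The search used AGGTCA, the half-site bound by nuclear receptors, on both strands, 2 copies of it in the same direction with 1 base between them allowing up to 2 mismatches in all (the arrangement used by Ppar and Rxr, which contains the half-site), and GGCGCC, which Smad proteins can bind. AGGTCA occurred in 2 of 7 members (Cpt1a and Acadm) and in 14.0% of 32851 promoters. The double arrangement occurred in 0 of 7 members and in 3.24% of promoters, and GGCGCC in 0 of 7 and in 9.59%. The members with a half-site are shown, with the match in capitals (TGACCT, the half-site read on the opposite strand), at -94 to -89 from the start in Cpt1a and at -249 to -244 in Acadm. Cpt1a lies on the plus strand at chr19:3323051-3323300 and Acadm on the minus strand at chr3:153944644-153944893.
Cpt1a: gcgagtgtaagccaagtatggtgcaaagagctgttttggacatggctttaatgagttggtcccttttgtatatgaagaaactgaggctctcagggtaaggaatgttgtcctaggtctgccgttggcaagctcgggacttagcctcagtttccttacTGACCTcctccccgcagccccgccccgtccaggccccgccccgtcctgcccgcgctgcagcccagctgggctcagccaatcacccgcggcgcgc
Acadm: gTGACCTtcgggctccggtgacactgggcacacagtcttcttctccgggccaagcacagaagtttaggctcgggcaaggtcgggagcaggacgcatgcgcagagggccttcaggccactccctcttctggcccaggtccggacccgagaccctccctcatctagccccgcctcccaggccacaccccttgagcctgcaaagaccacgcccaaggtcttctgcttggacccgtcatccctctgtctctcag

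Hadha and Hadhb start 272 bases apart on opposite strands of chromosome 5, so the stretch between them precedes both genes, and it is shown because the 2 transcripts rose together with BMP4. The part in the table is chr5:30155003-30155252, given on the plus strand, towards Hadhb. It holds 58.8% G and C and none of the motifs searched.
Hadha and Hadhb: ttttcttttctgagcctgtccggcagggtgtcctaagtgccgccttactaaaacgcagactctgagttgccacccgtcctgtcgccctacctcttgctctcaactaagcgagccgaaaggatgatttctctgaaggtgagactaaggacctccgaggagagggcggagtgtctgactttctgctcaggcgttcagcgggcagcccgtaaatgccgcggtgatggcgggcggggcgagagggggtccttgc

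The other genes of the pathway were taken from lists by function, without the members. The counts of every list below stand beside these shares of all genes called higher and lower. They were 33.7% and 31.4% with BMP4, 36.8% and 38.4% with BMP2, and 16.5% and 9.87% with BMP5. With BMP7 they were 19.2% and 13.2%, and with Tgfb 31.4% and 32.9%. With BMP4 the carnitine shuttle had 4 higher and 0 lower of 5 tested, mitochondrial beta-oxidation 13 and 1 of 14, and peroxisomal oxidation 13 and 1 of 14. Their median log2 changes were 1.97, 1.11 and 1.48, beside 0.04 for all genes. Examples were Crot (2.33, adjusted p = 6.01e-12), which makes carnitine esters in peroxisomes, Slc25a20 (2.15, adjusted p = 3.52e-11), the carnitine carrier of the inner membrane, and Acadvl (1.80, adjusted p = 6.38e-10). Acad11 (2.61), Decr1 (1.49), Abcd3 (2.05), the peroxisomal importer of fatty acids, and Acaa1a (1.65) rose as well. The exceptions were Acad9 and Pecr, which fell. At the same total the counts were 4 and 0, 10 and 1, and 13 and 1, and Eci1 (0.53) no longer passed.

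With BMP2 the carnitine shuttle had 3 higher and 0 lower of 5, mitochondrial beta-oxidation 3 and 7 of 14, and peroxisomal oxidation 4 and 6 of 14, with medians of 0.61, -0.47 and -0.21. Over all genes 36.8% were higher and 38.4% lower, with a median of -0.03, and the peroxisomal counts were near those shares. Crot (0.67), Slc25a20 (0.49), Slc22a5 (0.61), the plasma membrane carnitine transporter, and Acadvl (0.55) rose. Hadh (-2.02), the short-chain hydroxyacyl-CoA dehydrogenase, Eci1 (-1.96), an enoyl-CoA isomerase, and Decr1 (-0.78) fell. The rises of these 4 genes depended on the scaling. At the same total Crot was at 0.21, Slc25a20 at 0.03, Slc22a5 at 0.15 and Acadvl at 0.10, none past the threshold. There the 3 lists had 0 and 1, 2 and 11, and 1 and 11, where 3627 of all 14746 genes were higher and 7783 lower. After quantile normalisation the lists had 3 and 0, 2 and 10, and 2 and 8, where 5396 genes were higher and 5540 lower. Acadvl was then at 0.16 and did not pass. The falls of Hadh, Eci1 and Decr1 kept their direction and call under both.

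With Tgfb the carnitine shuttle had 2 higher and 1 lower of 3 tested, mitochondrial beta-oxidation 2 and 5 of 13, and peroxisomal oxidation 1 and 4 of 9. Over all genes 31.4% were higher and 32.9% lower. Slc25a20 (0.55), Acadvl (0.28) and Acox2 (1.58) rose, while Hadh (-1.23), Eci1 (-0.83) and Crat (-0.46) fell. With BMP5 the 3 lists had 0 and 0 of 5, 0 and 2 of 14, and 1 and 2 of 14. With BMP7 they had 0 and 0 of 5, 1 and 3 of 14, and 1 and 1 of 14. More genes were called lower under other settings, in these lists and over all genes alike. Of all 14746 genes, those lower with BMP5 went from 1455 to 2413 (quantile), 1893 (same total) and 2593 (block). Those lower with BMP7 went from 1940 to 2938, 2725 and 3148. With Tgfb they went from 2592 to 2929 of 7880 (quantile). Mitochondrial beta-oxidation had 5 lower with BMP5 and 5 with BMP7 after quantile normalisation, at the same total and with the replicate block, and 8 lower with Tgfb after quantile normalisation. Peroxisomal oxidation had 3 lower with BMP7 under either scaling and 6 with the block, and 3 lower with BMP5 with the block. The block gave 2 higher in place of 1 in mitochondrial beta-oxidation with BMP7 and in peroxisomal oxidation with BMP5 and BMP7. In the carnitine shuttle 1 gene passed as lower with BMP5 under all 3 settings, and 1 as higher with BMP7 after quantile normalisation and with the block.

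The ketone body list, part of which is not reported here, differed from the oxidation lists in its counts. Of 5 genes that join, reduce, activate or transport ketone bodies, 0 were higher and 0 lower with BMP4 (limma, with 1 gene, Acat1, at an unadjusted p under 0.05), and edgeR and DESeq2 called 0 each. The count was 1 and 3 with BMP2, 3 and 1 with BMP5, 3 and 1 with BMP7, and 1 and 2 of 4 with Tgfb. Under both other scalings the BMP4 count was 0 and 2 and the BMP2 count 1 and 4, and with the replicate block the BMP4 count was 1 and 0.

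Acat1, the thiolase that joins acetyl-CoA units, was at 2210, 2050, 2680 and 2100 normalised counts in untreated samples, at 4180, 4170 and 5330 with BMP5 and at 4790, 4200 and 5510 with BMP7. The BMP5 and BMP7 samples lay above all untreated ones. Acat1 rose by 1.01 with BMP5 (adjusted p = 0.0094), by 1.10 with BMP7 (adjusted p = 0.00443) and by 1.35 with Tgfb (adjusted p = 4.54e-05), and was at 0.59 with BMP4 (adjusted p = 0.0621). With BMP2 it was at 1370, 1260, 3950 and 1420, where replicate VI stood above all untreated samples and the other 3 below them (-0.35, adjusted p = 0.215, or -0.67 and -0.81 under the other scalings, both past the threshold). Oxct1, which activates ketone bodies for use as fuel, and Slc16a1, a carrier of lactate and ketone bodies, changed by -1.20 (adjusted p = 6.68e-10) and -1.29 (adjusted p = 2.41e-07) with BMP2 and by -0.37 (adjusted p = 0.0105) and -0.57 (adjusted p = 0.0012) with Tgfb. With BMP4 they were at 0.14 (adjusted p = 0.228) and 0.29 (adjusted p = 0.116), and Oxct1 turned to -0.35 (quantile) and -0.26 (same total) under the other scalings, both past the threshold.

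Among regulators, Ppara, the receptor that many of the members answer to, was at 365, 462, 619 and 654 normalised counts untreated, at 44.3, 70.3, 92.4 and 85.9 with BMP2 and at 2090, 2050 and 2300 with BMP4. The 3 ranges were separate, with changes of -2.84 (adjusted p = 2.52e-09) and 2.07 (adjusted p = 1.03e-06). Its coactivator Ppargc1a was at 147, 184, 190 and 209 untreated, at 37.5, 49.9, 15.2 and 22.4 with BMP2 and at 596, 996 and 488 with BMP4, with changes of -2.63 (adjusted p = 4.53e-07) and 1.86 (adjusted p = 0.000105). Pparg, the related receptor of fat storage, rose with both, by 2.28 with BMP2 and 2.62 with BMP4, and also by 1.13 with BMP5, 1.65 with BMP7 and 1.91 with Tgfb.

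Under both other scalings Ppara, Ppargc1a and Pparg kept these directions and calls. Over 8 tested Ppar receptors and coactivators, 7 were higher and 1 lower with BMP4 and 1 and 4 with BMP2. BMP5 and BMP7 gave 1 and 3 each, with 4 or 5 lower under the other scalings and 6 lower with BMP2. With the replicate block BMP5 and BMP7 gave 1 and 4 each. Tgfb gave 1 and 4 of 5, with Ppara at 15.4, 11.9 and 12.9 TPM untreated and 4.35, 3.65 and 4.35 with Tgfb, below the filter. Of 11 Ppar targets outside oxidation, 9 were higher and 0 lower with BMP4, and 4 and 6 with BMP2, while Tgfb gave 3 and 3 of 6. The lipid droplet genes Cidec (3.21 with BMP4, 3.11 with BMP2, 2.53 with Tgfb) and Plin2 (1.87, 2.94 and 1.14) rose with all 3 ligands, and Creb3l3 (2.91, 1.44 and 1.53) did too. Acot1, a cytosolic acyl-CoA thioesterase, changed by -5.15 with BMP2 and by -1.42 with Tgfb and was at 0.23 with BMP4 (adjusted p = 0.474).

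On the glucose side, the pyruvate dehydrogenase list without Pdk4 had 8 higher and 1 lower of 12 with BMP4, 1 and 11 with BMP2, 1 and 8 with BMP5, 1 and 7 with BMP7 and 0 and 11 of 11 with Tgfb. Pdk2, another kinase of the complex, changed by 1.77 with BMP4, by -1.02 with BMP2 and by -0.93 with Tgfb, unlike Pdk4, which rose with BMP2. The complex's own subunits Dlat (0.33 with BMP4, -1.38 with BMP2) and Pdhb (0.69 and -0.40) also had opposite signs under the 2 ligands, except that the Dlat rise with BMP4 was lost under other scalings (-0.00 quantile, -0.07 same total). The BMP4 count for this list was 5 and 2 after quantile normalisation and 4 and 3 at the same total. With the replicate block the list had 8 and 2 with BMP4, 1 and 11 with BMP5 and 1 and 10 with BMP7. Malonyl-CoA genes, which set the inhibitor of Cpt1a, had 3 higher and 0 lower of 6 with BMP4, 2 and 4 with BMP2, 2 and 1 with BMP5, 2 and 1 with BMP7, and 2 and 2 of 4 with Tgfb. The AMP-kinase subunits Prkaa1 and Prkaa2 rose with BMP2 (1.05 and 0.65) and BMP4 (0.42 and 1.05), with Prkaa1 under BMP4 not past the threshold in other scalings (0.16 and 0.02), where the list had 2 and 2 or 1 and 3.

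Of the general mitochondrial genes, 9 were higher and 2 lower of 12 with BMP4, 0 and 10 with BMP2, 0 and 7 with BMP5, 0 and 5 with BMP7 and 0 and 12 with Tgfb. Citrate synthase Cs was at 1.29 with BMP4 (adjusted p = 7.92e-10) and 0.05 with BMP2 (adjusted p = 0.578), or -0.57 and -0.41 with BMP2 under the other scalings, both past the threshold. Under those scalings the list had 5 and 3 (quantile) or 8 and 3 (same total) with BMP4, 0 and 12 under either with BMP2, and 0 and 10 or 0 and 9 with both BMP5 and BMP7. The replicate block gave 0 and 11 with BMP5, 0 and 8 with BMP7 and 9 and 3 with BMP4. The mitochondrial transcription factor Tfam and the chaperone Hspd1 were lower with both ligands, at -0.88 and -0.89 with BMP4 and -2.07 and -2.74 with BMP2.

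**Figure D5:**
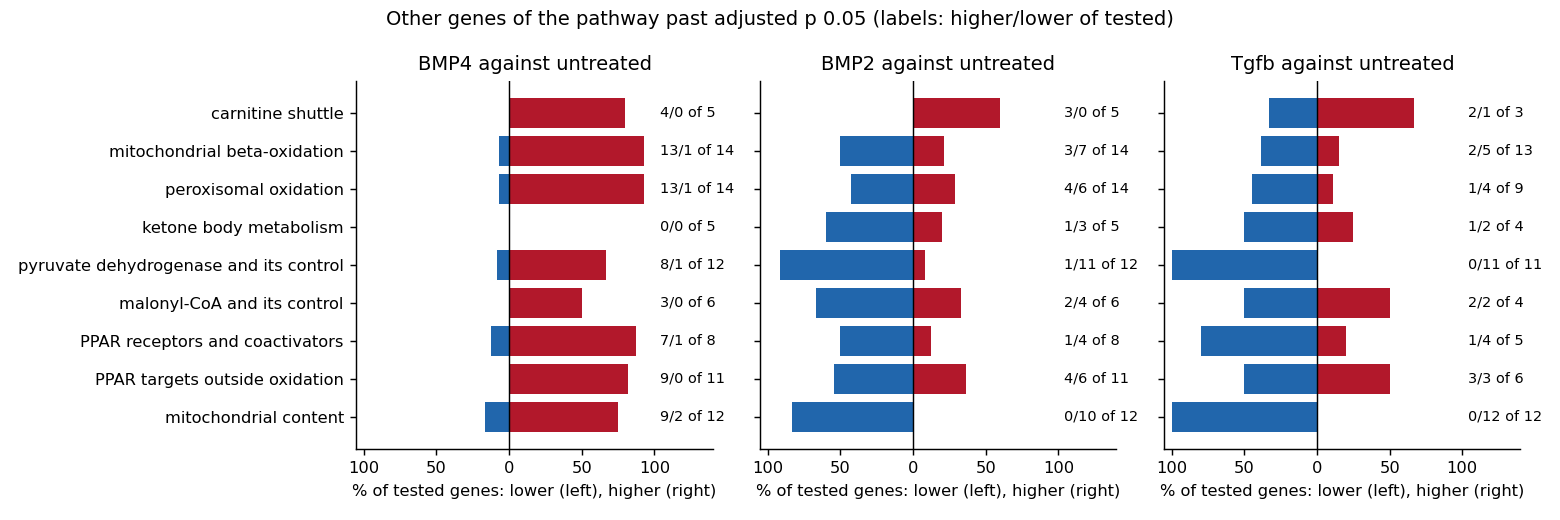
Share of the tested genes of 9 pathway lists, without the members, that were higher (red, right) or lower (blue, left) than in untreated organoids, for BMP4, BMP2 and Tgfb, with the counts beside each bar. The mitochondrial and peroxisomal oxidation lists have 13 of 14 genes to the right for BMP4 (10 and 13 with every sample set to the same total) and have genes on both sides for BMP2 and Tgfb (for BMP2, 2 higher and 11 lower, and 1 and 11, at the same total).

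Markers of cell state differed between groups. The 6 epithelial markers, among them the keratins Krt8 and Krt19, summed to between 106620 and 120690 normalised counts untreated, 591620 to 762240 with BMP2, 237330 to 337800 with BMP4, 187760 to 318440 with BMP5 and 232070 to 334870 with BMP7, and to between 2989 and 3233 TPM untreated and 11187 and 15076 with Tgfb. The 5 enterocyte markers summed to between 42016 and 77169 normalised counts in untreated samples, 277000 to 357890 with BMP4, 30880 to 85720 with BMP2, 31346 to 56360 with BMP5 and 25178 to 58190 with BMP7. The 4 crypt markers summed to between 100248 and 127945 untreated, 4585 to 7214 with BMP4, 189 to 987 with BMP2, 32129 to 80714 with BMP5 and 29323 to 33499 with BMP7. In TPM the crypt sum was 2311 to 2723 untreated and 141 to 151 with Tgfb, and the enterocyte sum 3496 to 5094 and 2094 to 2425. The enterocyte sum was thus higher beside the members with BMP4, while its BMP2 range overlapped with the untreated range. The crypt sum was lower with both ligands. A sum follows its most abundant genes, and single markers are not given here. Fabp1, an enterocyte marker in this sum, is also among the Ppar targets above, where it passed as higher with BMP4 and lower with BMP2. The part of these markers in the members' changes was not tested. In bulk samples fewer cells of a type and less RNA per cell cannot be told apart.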

How the data were processed

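RNA-seq of organoids came in 2 tables with separate scaling, and each test used samples of 1 table. The BMP table holds a signal deposited by the authors. Its values are read counts over a sample's size factor, as the low values show, since 180721 values from 1 to 20 reads came out as whole reads in 100% (tolerance 0.11 read). The TGFb table holds TPM deposited by the authors, as each column sums to 1000000. Trim Galore, Salmon, DESeq2 and GRCm39 are named, without versions or order, per the submitters' processing notes, and mRNA libraries came from a KAPA kit, per the labels' protocols. Several sequencing runs are mentioned and no sample is tied to a run.

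Groups were taken from the labels. limma 3.58.1 in R 4.3.3 was fitted with an intensity trend to log2(value + 1) for genes with a mean of at least 10 (14746 genes over all 6 groups of the BMP table, 7880 over the 6 TGFb samples), with two-sided tests, 95% intervals and Benjamini-Hochberg adjustment. A log2 change on this scale understates the change of low genes. The script was tested on simulated data. Alternatives were pseudocounts of 0.1 and 5, no filter, a mean of at least 50, quantile normalisation, the same total, edgeR 4.0.16 and DESeq2 1.42.0 on the recovered reads (rounded above 999 reads), the replicate number as a block, and leaving out each sample. Same-numbered samples deviated together for BMP3, BMP4, BMP5 and BMP7 against untreated samples, BMP4 against BMP7 and BMP5 against BMP7 (every correlation of deviations between 0.150 and 0.553), so there the numbers pair samples. The main fit had no block. For these comparisons, blocked values stand beside the member calls and the printed list counts that they change. Blocked values of the named list genes are not given.

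The members, the gene lists and the tests were chosen with earlier results of these data known. Named genes were the 8 members, up to 3 genes per list with the smallest p for BMP4 and up to 2 for Tgfb, plus Hadhb, Ppara and Ppargc1a. Acad9 and Pecr fall outside that rule and were named after their values were seen. Part of the ketone body list is not reported here. No coordinates of GRCm39 genes were used here.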

Additional observations from a re-analysis of the deposited data

Results flagged for a closer look

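Of 16 groups of 4 samples examined (8 members, untreated and BMP2), 1 held a sample far from the rest, where chance gives about 1 in 20 such groups. Acadm was at 1950 normalised counts in untreated replicate VI and between 1580 and 1630 in the other 3, so that the gap took up 0.865 of the range (critical value 0.829). Replicate VI also held the highest of the values II, III and VI in 30 of 40 pairs of member and group (untreated, BMP2, BMP4, BMP5 and BMP7). It did so in 5 of 5 groups for Cpt2 and Acadl and in 1 of 5 for Pdk4. The members share the same samples, and the share over all genes was not counted. Without untreated replicate VI, Acadm with BMP5 was at -0.22 (adjusted p = 0.139) and no longer passed.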

How the results depend on the processing

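Of 43 member changes past the threshold, 35 kept sign and call under every alternative run and 42 kept their sign, and all 8 rises with BMP4 are among the 35. Of 36 values not past it, 10 passed under at least 1 alternative and 20 changed sign. The exception in sign was Hadha with BMP2, at -0.13 after quantile normalisation and -0.044 at the same total, where 2 members in place of 4 were higher and 3 in place of 2 lower. Over all 14746 genes, BMP2 called 5396 higher and 5540 lower after quantile normalisation. At the same total it called 3627 and 7783, in place of 5420 and 5657 as scaled by the authors. For BMP2 against BMP7, the same total gave -0.26 for Cpt1a, -0.34 for Acadm and -0.21 for Hadha (also -0.21 with quantiles). At the same total 5 members were lower in place of 2, where 6948 of 14746 genes were lower in place of 4625. A mean of at least 50 left 1 member higher, where 4125 of 11856 genes were higher. The cause of these moves was not tested, beyond the shift of the all-gene median that the scaling itself makes. With a mean of at least 50, which drops Pdk4 or low TPM genes, BMP7 and Tgfb had 1 member higher and Tgfb 1 lower. At that filter BMP7 called 2578 of 11856 genes higher, and Tgfb 827 higher and 922 lower of 2560. Tgfb called 1749 genes in either direction there, or 7855 without a filter, in place of 5065. DESeq2 called 1 gene with BMP3. BMP5 against BMP7 (2 genes) gave 0 with a pseudocount of 0.1 or a mean of at least 50, 1 with either scaling, 4 with a pseudocount of 5, without a filter or with edgeR, 6 with the block and 23 with DESeq2.

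With the replicate number as a block, members higher were 1 for BMP5 and 4 for BMP7, changes given with the results; no other member call than Acadm with BMP7 changed in the comparisons where numbers pair. In the others not every same-numbered pair deviated together, and whether their numbers pair samples is not settled. The correlations ran from 0.018 to 0.421 for BMP2, -0.040 to 0.298 for BMP2 against BMP4, -0.107 to 0.218 for BMP2 against BMP7 and -0.019 to 0.141 for Tgfb. In that order, 3 of 4, 2 of 3, 2 of 3 and 1 of 3 numbers correlated best with their own. In these comparisons the block put Cpt2 (0.24, adjusted p = 0.00639) and Acadm (-0.20, adjusted p = 0.0326) with BMP2 past the threshold. It did so too for Hadha with Tgfb (0.26, adjusted p = 0.0262), and for Cpt1a and Hadha for BMP2 against BMP7. The last had 4 members higher, where 5298 of 14746 genes were higher.

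Leaving out 1 sample at a time, genes called ranged from 0 to 1 with BMP3, 2517 to 4301 with BMP5 and 0 to 9 for BMP5 against BMP7, where 9 was without BMP5 replicate III. Members lower ranged from 1 to 3 with BMP5 (1 without BMP5 replicate III) and 1 to 2 with BMP7, and members higher from 0 to 3 with BMP7 (0 without BMP7 replicate II) and 1 to 2 with Tgfb. Without BMP5 replicate III, BMP5 called 713 of 14749 genes lower, and without BMP7 replicate II, BMP7 called 2308 of 14778 higher. Depth limits Pdk4, which came from 6 to 16 reads in untreated samples.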
